A study of Homo sapiens with 4 samples.

Results

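Long noncoding RNAs named as long intergenic (LINC) or antisense (AS) genes were followed across 4 human precursor-B acute lymphoblastic leukemia cell lines by RNA-seq. The t(4;11) group consists of RS4;11 and SEM, in which a translocation joins the MLL gene to AFF1, and the controls NALM6 and REH lack it; each line gave 1 library. All 4 lines were grown untreated in RPMI medium with fetal bovine serum, and polyadenylated RNA was sequenced with a kit that does not mark strand. Each line stands for the leukemia of 1 patient, so the spread within a group is that between different leukemias, and what sets 1 line apart cannot be told from what t(4;11) does. In such bulk samples fewer cells that make an RNA and less of it per cell cannot be told apart.

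Members were the genes of the count table whose symbol starts with LINC0 or ends in -AS1, -AS2 or -AS3, with at least 20 counts summed over the 4 lines and outside chromosomes X and Y. Of 289 symbols of this form (144 LINC and 145 antisense), 85 had no count in any line, 156 in all fell under 20 counts and 133 reached them. Leaving out 4 on X or Y gave 129 members of 23368 genes: 48 LINC genes and 81 antisense genes (73 named AS1, 6 AS2 and 2 AS3). The summed counts thus chose the members, and they say nothing by themselves about the groups. Just inside the limit stood GRIK1-AS2 with 23 counts and TMEM72-AS1 with 24, and just outside it LINC00256B, whose 17 counts were all from SEM, and LINC00485, also with 17. One member, LINC00338, had no position in the authors' deposited table.

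A long noncoding RNA is a transcript that is usually capped, spliced and polyadenylated like an mRNA but has no long reading frame. Antisense RNAs are made from the strand opposite a partner gene, either across its body or away from its promoter in the other direction (head to head), and some regulate that partner while others act elsewhere or only mark an active promoter. Several long noncoding genes are best known for what lies in their introns, small nucleolar RNAs that guide modification of ribosomal RNA or microRNAs that repress mRNAs through a short seed. In leukemias with a rearranged MLL gene, the noncoding RNAs of the HOXA cluster have drawn particular interest because the cluster itself is a target of the fusion protein.

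The names cover genes of more than 1 kind. Of the 129 members, 128 matched a RefSeq gene, and 41 of these now have another symbol. RefSeq lists 115 as long noncoding RNAs, 4 as transcribed pseudogenes (CRYM-AS1, LINC00266-1, TP73-AS1 and ZNRD1-AS1) and 9 as protein coding. The 9 are AATK-AS1, HNRNPU-AS1, LINC00085, LINC00094, LINC00116, LINC00176, LINC00282, LINC00341 and LINC00493. HNRNPU-AS1 is listed there only as a synonym of its partner HNRNPU, so the listing describes the partner and not a separate antisense gene. Among the 9, LINC00116 is now MTLN, which encodes the small mitochondrial protein mitoregulin, and LINC00493 is now SMIM26, which encodes a small integral membrane protein. LINC00116 stood at 3.95 CPM (a gene's count scaled to an equal total of counts in each library) in RS4;11, 3.87 in SEM, 5.44 in NALM6 and 1.92 in REH. LINC00493 stood at 16.9, 15.2, 18.1 and 18.3 CPM in the same order. Neither differed between the groups beyond its error (log2 fold change of t(4;11) over control 0.19, SE 0.75, and -0.08, SE 0.32). Both were picked for their annotation and not by the rule for named genes.

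Library totals were 51872617 counts (RS4;11), 33620574 (SEM), 44849858 (NALM6) and 84212986 (REH), so 3 counts, the limit that a count of 0 allows, correspond to 0.0578, 0.0892, 0.0669 and 0.0356 CPM (counting error only). All 13 B-lineage markers were counted in the lines, with summed levels of 2402, 1216, 5030 and 9071 CPM in RS4;11, SEM, NALM6 and REH. The 10 T and NK cell markers summed to 0.154, 4.94, 22.2 and 3.31 CPM, the 10 myeloid markers to 11.95, 34.7, 1.29 and 45.2 CPM, and CD3D, CD3E, CD3G, KLRD1, ELANE, PRTN3, FCN1 and S100A12 were at 0 in every line. The 8 erythroid and megakaryocyte markers summed to at most 6.88 CPM and the 10 stromal and epithelial markers to at most 19.3 CPM. The B-lineage sum was higher in both controls, as were many members below; its part in their values was not tested.

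Members made up a small and similar part of each library: 0.174% of counts in RS4;11, 0.146% in SEM, 0.168% in NALM6 and 0.197% in REH. Most were scarce. The mean over the 4 lines was under 1 CPM for 54 members, from 1 to 10 CPM for another 54 and at least 10 CPM for 21, with a median of 1.51 CPM. Per length, the authors' deposited table gave the 109 members tested there a median of 1.17 FPKM (fragments per kilobase, scaled to library size) in the t(4;11) group and 1.58 FPKM in the controls, against 9.18 and 9.66 FPKM for all genes tested there. All 22 autosomes held members. Chromosome 21, with 11 members among its 156 genes of at least 20 counts (7.05%), and chromosome 13, with 9 of 263 (3.42%), held the largest shares, while chromosome 1 held 13 of 1534 (0.848%).

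A few genes supplied most of the signal. The 5 most abundant members, C17orf76-AS1, FGD5-AS1, OIP5-AS1, HNRNPU-AS1 and ZNFX1-AS1, took 69.9% of the members' summed CPM in RS4;11, 74.2% in SEM, 65.9% in NALM6 and 59.0% in REH. C17orf76-AS1, now SNHG29, a host of small nucleolar RNAs, stood at 738 CPM in RS4;11, 627 in SEM, 544 in NALM6 and 569 in REH. Both t(4;11) lines were above both controls, with a log2 fold change of 0.40 and an SE of 0.19 (adjusted p = 0.506 by edgeR). Its FPKM in the authors' deposited table, 863 with t(4;11) and 671 without, was the highest of the named members per length. FGD5-AS1 stood at 164.5, 184, 152 and 174.5 CPM, with groups that overlapped (log2 fold change 0.20, SE 0.17). ZNFX1-AS1, now ZFAS1, whose introns hold SNORD12, SNORD12B and SNORD12C, stood at 107, 81.7, 96.8 and 120.3 CPM, and HNRNPU-AS1 at 112, 85.3, 104 and 121.5 CPM. For both, SEM was lowest and REH highest, and the groups overlapped (log2 fold changes -0.10, SE 0.25, and -0.09, SE 0.23). EPB41L4A-AS1, host of SNORA13, stood at 41.8, 31.9, 23.4 and 30.3 CPM, both t(4;11) lines above both controls (log2 fold change 0.56, SE 0.30, adjusted p = 0.536). Exons of the gene's partner on the other strand overlap 49.6% of its exonic bases in GENCODE, and reads there could not be assigned to a strand.

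**Figure D1:**
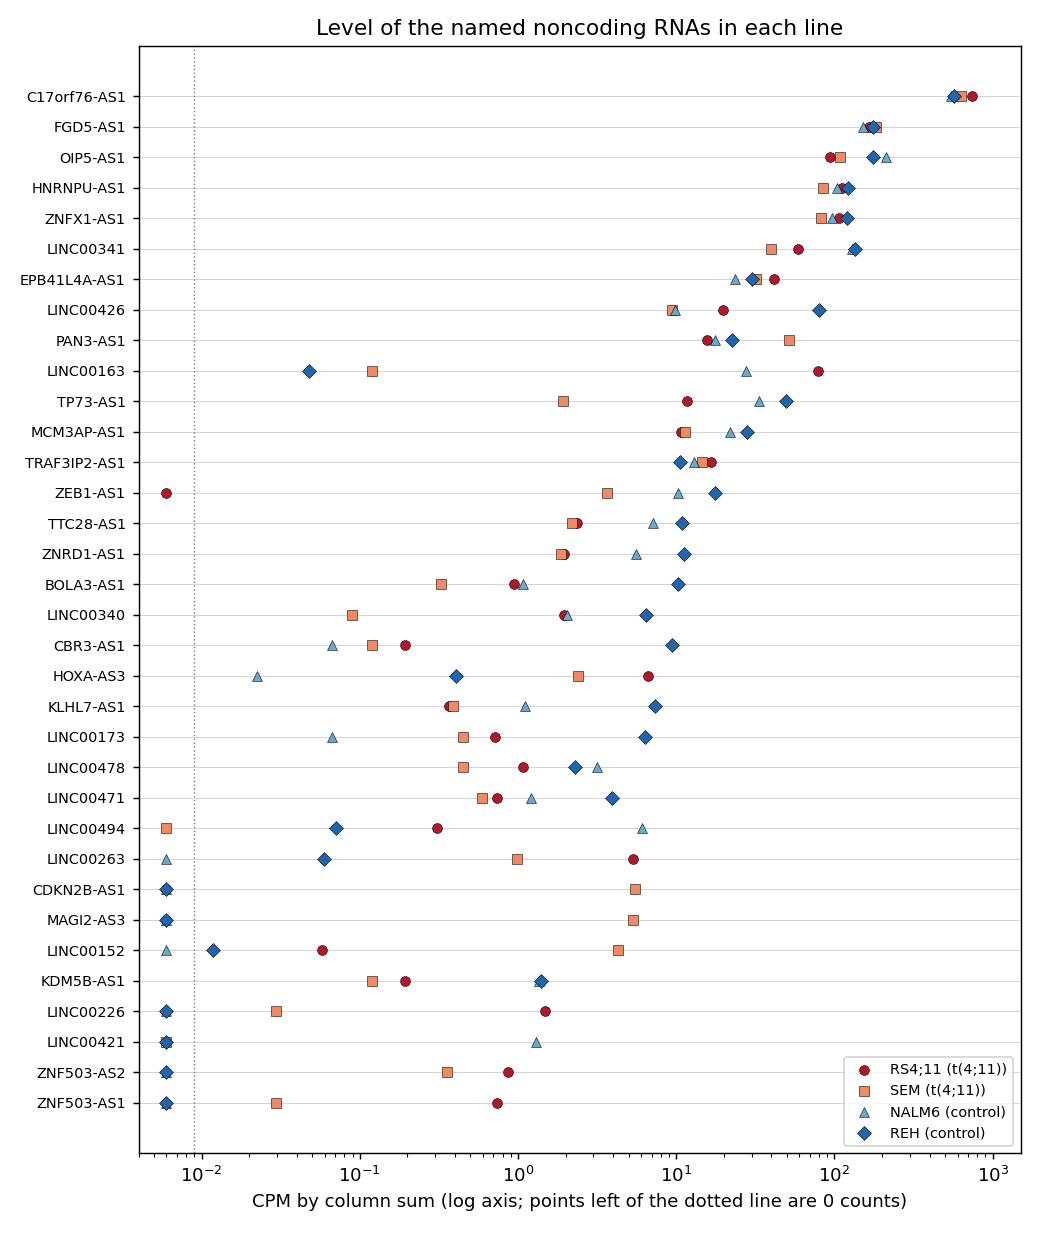
Level of each of the 34 named members in RS4;11, SEM, NALM6 and REH, in CPM on a log axis, 1 point per line and from the most to the least abundant. Points left of the dotted line are lines with 0 counts, where several can lie on top of each other. The distance between the lines differs from member to member: C17orf76-AS1 stands between 544 and 738 CPM in the 4 lines, while LINC00163, also among the 10 most abundant, runs from 0.0475 to 78.3 CPM.

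No member passed the test between the groups. The quasi-likelihood test of edgeR, fitted to all 13844 genes with enough counts, gave values for 101 of the 129 members, and 0 of them had an adjusted p under 0.05, as did 0 of all genes tested (background 0.00%). The lowest adjusted p of a member was 0.334, for LINC00341. Without adjustment, 3 of the 101 members (2.97%) were higher with t(4;11) at p under 0.05, against 6.18% of all genes tested, and 7 (6.93%) were lower, against 5.87%. The filter asks for enough counts in at least 2 lines, which 1 group can supply alone, so the 101 are not the whole set. Of the 28 members without values, 15 had at least 80% of their summed CPM in a single line.

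Other tests called different members. The exact test of edgeR called ZNF503-AS2 alone, 1 of 101, against a background of 3.19% (2.02% higher and 1.16% lower). DESeq2 called 7 of the 89 members it gave an adjusted p (7.87%) against a background of 10.1%. The call higher with t(4;11) was LINC00263, 1 of 89 (1.12%) against 5.21% of all genes, and the 6 calls lower (6.74% against 4.93%) were OIP5-AS1, LINC00341, MCM3AP-AS1, LINC00265, TTC28-AS1 and ZNRD1-AS1. In the authors' deposited table of DESeq results 1 of the 129 members, TP73-AS1, had an adjusted p under 0.05, against 1.56% of all genes there, 0.630% being lower with t(4;11). By q in the authors' deposited Cuffdiff results, 0 of 109 members passed 0.05, with a lowest q of 0.0829, against 2.34% of all genes tested there. Over both directions the members' share of calls was below that of all genes in each of these 4 tests.

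The members leaned toward lower values with t(4;11), and this rested on REH. Of the 101 with values, 69 (68.3%) had a log2 fold change below 0, against 51.1% of all genes tested, and their median was -0.35 (interquartile range -1.19 to 0.20) against -0.02. The median SE of a member was 0.79, against 0.43 for all genes, so most single values lie within their error. The median was -0.53 for the 35 LINC genes and -0.26 for the 66 antisense genes. With RS4;11 left out the members' median was -0.58 (all genes -0.07), with SEM left out -0.45 (-0.06) and with NALM6 left out -0.49 (0.01). With REH left out it was 0.044 (0.049), with 51 of 112 members below 0 (45.5%, against 47.1% of all genes). Where library size alone was used for scaling, the medians were -0.45 for members and -0.12 for all genes.

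**Figure D2:**
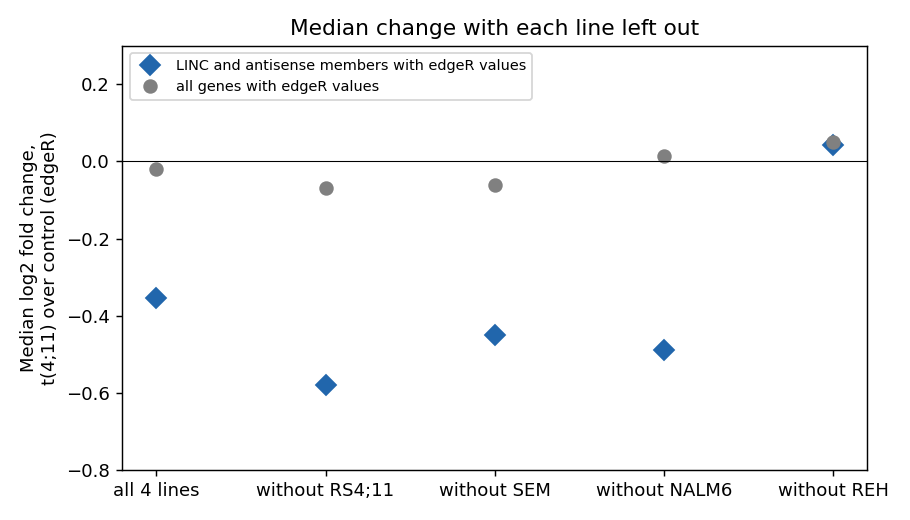
Median log2 fold change of t(4;11) over control from edgeR, for LINC and antisense members with values (diamonds) and for all genes with values (circles), with all 4 lines and with each line left out. Members lie well below all genes with all 4 lines and without RS4;11, SEM or NALM6; without REH the medians are 0.044 and 0.049.

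Members most often had their highest level in REH. That line held the highest CPM of 62 of the 129 members (48.1%), against 33.2% of all autosomal genes with at least 20 counts. NALM6 was highest for 26 members (20.2%, against 27.6%), RS4;11 for 25 (19.4%, against 17.2%) and SEM for 16 (12.4%, against 22.1%). Among the 90 members with at least 100 counts, REH was highest for 54 (60.0%, against 32.4%), NALM6 for 16 (17.8%, against 28.6%), RS4;11 for 14 (15.6%, against 16.8%) and SEM for 6 (6.67%, against 22.1%). The excess in REH lay in these 90, which held 54 of the 62 members highest there. Among the 39 members with 20 to 100 counts, REH was highest for a smaller share than among all 1678 genes of that class. REH was the most deeply sequenced line, and a minimum on summed raw counts admits genes of the deepest library more easily. With members chosen instead by a mean of at least 0.5 CPM, which weights the lines equally, REH was highest for 49 of 85 members (57.6%), against 31.6% of all genes chosen in the same way. Whether depth has any other part in it was not tested.

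**Figure D3:**
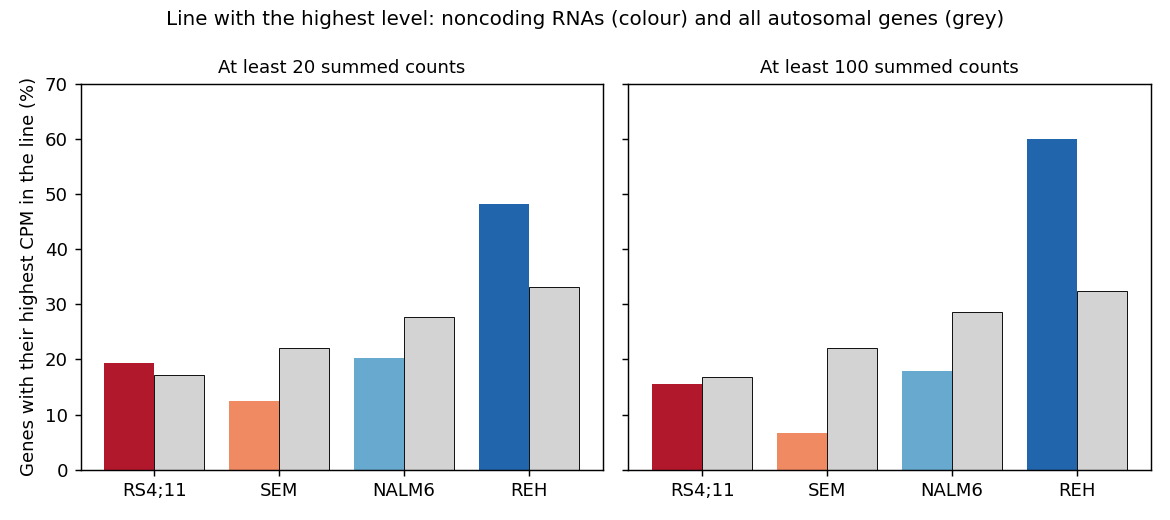
Share of genes, in percent, whose highest CPM lies in each line, for LINC and antisense members (coloured bars) and for all autosomal genes (grey bars), with at least 20 summed counts on the left and at least 100 on the right. REH holds 48.1% and 60.0% of the members against 33.2% and 32.4% of all genes, and SEM holds the fewest members in both panels.

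Both t(4;11) lines lay above both controls for 14 of the 129 members (10.9%), against 18.2% of all autosomal genes with at least 20 counts. They lay below both controls for 39 (30.2%), against 27.5%. With at least 100 counts the numbers were 6 of 90 higher (6.67%, against 18.5%) and 32 of 90 lower (35.6%, against 28.5%). Of the 48 LINC genes 7 lay higher and 14 lower, and of the 81 antisense genes 7 higher and 25 lower. All these counts used CPM by column sum. With library sizes scaled as in the edgeR fit (TMM), 16 of the 129 members lay higher and 34 lower. The shares of all genes with that scaling are not given.

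Among the members lower in both t(4;11) lines, OIP5-AS1 was the most abundant. OIP5-AS1, also known as cyrano and studied as a sponge for miR-7, stood at 93.3 CPM in RS4;11, 108 in SEM, 213 in NALM6 and 174.5 in REH, which gave a log2 fold change of -0.84 (SE 0.19) with an adjusted p of 0.337 by edgeR and 0.00612 by DESeq2. In each setting with 1 line left out it stayed between -0.99 and -0.69. Its partner OIP5, a kinetochore assembly factor on the other strand, stood at 16.4, 22.9, 22.7 and 21.3 CPM with overlapping groups (log2 fold change -0.06, SE 0.32). Per length the authors' deposited table gave OIP5-AS1 58.8 FPKM with t(4;11) and 105.8 without, and OIP5 18.3 and 19.2 FPKM.

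LINC00341 had the lowest adjusted p, and its counts were close to those of another gene. It stood at 59.2 CPM in RS4;11, 39.5 in SEM, 130 in NALM6 and 135 in REH, which gave a log2 fold change of -1.32 (SE 0.28) with an adjusted p of 0.334 by edgeR and 0.00208 by DESeq2. RefSeq now lists LINC00341 as a synonym of SYNE3, a nesprin that anchors the nucleus to the cytoskeleton, and the count table holds that gene separately under its older symbol C14orf49. C14orf49 stood at 64.4, 44.1, 136 and 147 CPM (log2 fold change -1.28, SE 0.27). The counts of LINC00341 were 91.9%, 89.5%, 95.3% and 92.1% of those of C14orf49 in the 4 lines, at positions that do not overlap in the authors' deposited Cuffdiff table (hg19 chr14:95873604-95876427 for LINC00341 and chr14:95883831-95942173 for C14orf49). Whether the same reads were counted for both was not tested.

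Further members below both controls were named by the same rule or called by DESeq2. MCM3AP-AS1 stood at 10.7, 11.3, 21.8 and 27.9 CPM in RS4;11, SEM, NALM6 and REH (log2 fold change -1.07, SE 0.33, adjusted p = 0.393), and its partner MCM3AP, which encodes an mRNA export factor, at 133, 161, 171 and 213 CPM (-0.29, SE 0.21). TTC28-AS1 stood at 2.37, 2.20, 7.14 and 10.9 CPM (-1.88, SE 0.56, adjusted p = 0.384). Its partner TTC28 did not follow the groups, with 16.4, 49.1, 0.557 and 86.0 CPM. ZNRD1-AS1, placed by the authors' deposited table on an alternative haplotype of the major histocompatibility region, stood at 1.97, 1.87, 5.60 and 11.2 CPM (-2.03, SE 0.64, adjusted p = 0.399). LINC00265, which the naming rule did not pick and which is given because DESeq2 called it, stood at 7.94, 5.86, 19.5 and 20.1 CPM (-1.41, SE 0.40, adjusted p = 0.381). In each of these 4 genes the t(4;11) lines were close to each other and each was below the lower control.

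TP73-AS1, antisense to the p53 relative TP73, was the member called by the authors' deposited table of DESeq results (adjusted p = 0.0213, while the deposited Cuffdiff q was 0.310). It stood at 11.6 CPM in RS4;11, 1.93 in SEM, 33.4 in NALM6 and 49.2 in REH (edgeR log2 fold change -2.49, SE 1.01, adjusted p = 0.454). Within t(4;11), RS4;11 was nearer to NALM6 than SEM was, so the t(4;11) lines were not alike. TP73 itself stood at 5.28, 0.0297, 0.245 and 0.487 CPM, highest in RS4;11, where its antisense gene was below both controls.

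KDM5B-AS1 and ZEB1-AS1 were below both controls in both t(4;11) lines, and so were their partners. KDM5B-AS1, now PCAT6, whose 5′ end lies 1484 bases from that of KDM5B, a histone H3 lysine 4 demethylase, stood at 0.193 CPM in RS4;11, 0.119 in SEM, 1.36 in NALM6 and 1.39 in REH (log2 fold change -3.01, SE 0.71, adjusted p = 0.348). These rest on 10, 4, 61 and 117 counts. KDM5B stood at 3.61, 0.327, 158 and 266.5 CPM (-6.62, SE 1.45). ZEB1-AS1 had 0 counts in RS4;11 and stood at 3.66 CPM in SEM, 10.3 in NALM6 and 17.5 in REH, and ZEB1, a zinc finger repressor, had 3 counts in RS4;11 and stood at 10.5, 52.4 and 46.9 CPM in the other lines. Both genes of the locus were thus at or under 3 counts in RS4;11, while SEM held both, below the controls (log2 fold change -2.85, SE 2.51, for ZEB1-AS1 and -3.15, SE 2.15, for ZEB1).

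Some members lower with t(4;11) had their highest level in REH and a smaller difference without it. BOLA3-AS1 stood at 0.945, 0.327, 1.07 and 10.3 CPM (log2 fold change -3.05, SE 1.45, and -0.64 without REH). KLHL7-AS1 stood at 0.366, 0.387, 1.12 and 7.30 CPM (-3.38, SE 1.20, and -1.46 without REH). LINC00340, now CASC15, a gene of the 6p22 neuroblastoma risk locus, stood at 1.95, 0.0892, 2.05 and 6.46 CPM (-1.94, SE 1.65, and -0.90 without REH). In BOLA3-AS1 and KLHL7-AS1 NALM6 was nearer to both t(4;11) lines than to REH. In LINC00340 NALM6 was close to RS4;11, and SEM stood far below both. LINC00471, at 0.733, 0.595, 1.20 and 3.94 CPM, was also highest in REH.

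Higher values with t(4;11) were found for fewer members. LINC00263, now OLMALINC, stood at 5.34 CPM in RS4;11, 0.982 in SEM, 0 in NALM6 and 0.0594 in REH, from 277, 33, 0 and 5 counts (log2 fold change 6.61, SE 1.95, edgeR adjusted p = 0.382, DESeq2 adjusted p = 0.0115). HOXA-AS3, which runs across HOXA5 and HOXA6 on the other strand, stood at 6.59 CPM in RS4;11, 2.41 in SEM, 0.0223 in NALM6 and 0.404 in REH, from 342, 81, 1 and 34 counts (4.46, SE 1.67, adjusted p = 0.434). In both genes each t(4;11) line was above both controls, and RS4;11 was above SEM. HOXA5 stood at 13.6, 7.05, 0 and 7.46 CPM, HOXA6 at 3.08, 2.68, 0 and 1.86 CPM and HOXA7 at 14.4, 10.0, 0 and 0.309 CPM. REH thus held HOXA5 at the level of SEM while its HOXA-AS3 stood below that of SEM. Other noncoding RNAs of the cluster, which are not members, did not follow HOXA-AS3 and were highest in REH. HOTAIRM1 stood at 0.771, 0.357, 0 and 3.19 CPM in RS4;11, SEM, NALM6 and REH (log2 fold change -1.40, SE 2.43). HOTTIP stood at 0.0193, 0.119, 0.0669 and 1.67 CPM in the same order. In GENCODE 39.4% of the exonic bases of HOXA-AS3 lie opposite an exon of another gene. LINC00092, outside the naming rule, was also higher before adjustment, at 1.33, 0.268, 0.0446 and 0.0238 CPM (4.62, SE 1.26, adjusted p = 0.377). TRAF3IP2-AS1 stood at 16.6, 14.5, 12.9 and 10.6 CPM, higher by a log2 fold change of 0.51 (SE 0.37), while its partner TRAF3IP2, an adaptor of interleukin-17 signalling, stood at 91.2, 32.2, 241.5 and 54.9 CPM.

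Both antisense genes of ZNF503, a zinc finger repressor of development, were counted with t(4;11) only. ZNF503-AS2 had 45 counts in RS4;11, 12 in SEM and 0 in both controls, and ZNF503-AS1 had 38, 1, 0 and 0. ZNF503 stood at 6.88 CPM in RS4;11, 3.81 in SEM and 0 in both controls, so all 3 genes of the locus had the same order. The exact test of edgeR called ZNF503-AS2 (adjusted p = 0.0165) and the quasi-likelihood test did not (adjusted p = 0.337). No fold is given, because both controls are at 0 and the fitted value depends on the count added before taking logs.

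The starts of 5 members that separate the lines are shown so that the loci can be recognised: LINC00263 and HOXA-AS3 for values higher with t(4;11), KDM5B-AS1 for lower ones, LINC00163 for a pattern that crosses the groups and CBR3-AS1 for 1 line alone. Each run holds 250 bases before and 50 after the start in RefSeq, 5′ to 3′ on the strand of the gene, in GRCh38.p14, with the GC box (GGGCGG), the CCAAT box and the TATA box (TATAAA) of either strand in capitals. LINC00263 lies at chr10:100373326-100373625 on the plus strand, HOXA-AS3 at chr7:27146913-27147212 on the plus strand and KDM5B-AS1 at chr1:202810704-202811003 on the plus strand. LINC00163 lies at chr21:44994037-44994336 on the minus strand and CBR3-AS1 at chr21:36156259-36156558 on the minus strand.
LINC00263: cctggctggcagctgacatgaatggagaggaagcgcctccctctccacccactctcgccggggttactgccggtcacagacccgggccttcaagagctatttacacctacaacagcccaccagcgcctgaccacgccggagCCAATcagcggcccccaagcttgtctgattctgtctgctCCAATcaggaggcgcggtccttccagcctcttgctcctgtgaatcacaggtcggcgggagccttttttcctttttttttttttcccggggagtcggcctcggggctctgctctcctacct
HOXA-AS3: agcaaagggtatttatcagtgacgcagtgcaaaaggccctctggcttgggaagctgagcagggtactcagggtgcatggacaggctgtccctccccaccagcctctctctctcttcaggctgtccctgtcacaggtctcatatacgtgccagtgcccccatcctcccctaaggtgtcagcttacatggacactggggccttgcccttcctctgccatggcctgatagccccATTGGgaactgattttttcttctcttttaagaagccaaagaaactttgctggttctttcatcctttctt
KDM5B-AS1: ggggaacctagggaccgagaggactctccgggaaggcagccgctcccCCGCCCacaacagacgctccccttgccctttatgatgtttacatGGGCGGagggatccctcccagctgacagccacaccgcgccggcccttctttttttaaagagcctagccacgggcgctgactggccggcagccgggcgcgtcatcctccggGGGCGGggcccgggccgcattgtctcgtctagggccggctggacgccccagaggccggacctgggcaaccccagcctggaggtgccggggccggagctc
LINC00163: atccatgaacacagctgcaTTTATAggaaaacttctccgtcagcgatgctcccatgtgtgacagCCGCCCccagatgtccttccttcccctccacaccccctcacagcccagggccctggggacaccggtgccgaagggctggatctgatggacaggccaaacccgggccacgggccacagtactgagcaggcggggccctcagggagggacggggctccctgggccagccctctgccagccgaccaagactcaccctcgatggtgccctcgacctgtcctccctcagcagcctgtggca
CBR3-AS1: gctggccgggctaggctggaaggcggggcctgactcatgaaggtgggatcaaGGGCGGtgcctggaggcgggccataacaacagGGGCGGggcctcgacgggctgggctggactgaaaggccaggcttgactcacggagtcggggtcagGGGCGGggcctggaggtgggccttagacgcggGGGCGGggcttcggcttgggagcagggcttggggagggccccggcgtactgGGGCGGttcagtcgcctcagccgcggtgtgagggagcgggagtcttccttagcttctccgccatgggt

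The windows differ in base content. That of CBR3-AS1 holds 70.3% G and C, 22 CpG and 5 matches to GGGCGG, and that of KDM5B-AS1 69.7%, 25 CpG and 3 matches. The window of HOXA-AS3 holds 52.7% G and C, 2 CpG and 1 match to CCAAT, and that of LINC00263 holds 2 matches to CCAAT. LINC00163 has 1 match to the TATA box and 1 to the GC box. Over the 98 members with a window in RefSeq, 51.0% held GGGCGG on either strand, against 44.6% of all 27305 windows of the same length. CCAAT was held by 33.7%, against 35.7%, and the TATA box by 7 of the 98 (7.14%), against 3264 of the 27305. The members' windows had a median of 62% G and C and 19 CpG, against 58.3% and 14 over all windows. A match is a string of letters, not a site that was measured.

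Several members were read almost entirely in 1 line. At least 80% of the summed CPM lay in a single line for 20 of the 129 members (15.5%), against 8.44% of all autosomal genes with at least 20 counts: 9 in REH, 5 in SEM, 4 in RS4;11 and 2 in NALM6. This applied to 12 of 48 LINC genes (25.0%) and 8 of 81 antisense genes (9.88%). Scarce genes in general are more uneven. Among genes with 20 to 100 counts the share was 20.5% of members and 21.2% of all genes, and with 100 to 1000 counts 20.3% and 20.6%. The members' share over all levels is thus close to that of other genes as scarce as they are. Within these classes LINC genes stood at 37.5% and 28.6% and antisense genes at 8.70% and 15.8%.

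In SEM, CDKN2B-AS1, also known as ANRIL, had 185 counts (5.50 CPM), MAGI2-AS3 had 179 (5.32 CPM) and LINC00152, now CYTOR, had 145 (4.31 CPM). CDKN2B-AS1 and MAGI2-AS3 had 0 counts in the other 3 lines, and LINC00152 had 3 in RS4;11, 0 in NALM6 and 1 in REH. CDKN2B-AS1 lies in the 9p21 locus of the cell cycle inhibitors CDKN2A and CDKN2B. CDKN2A stood at 98.2 CPM in SEM, 0.0446 in NALM6 and 0 in RS4;11 and REH, and CDKN2B at 1.34 CPM in SEM and 0 in the other lines, so the whole locus was read in SEM and almost nowhere else. The partner of MAGI2-AS3 did not behave in this way: MAGI2, a scaffold protein whose 5′ end lies 697 bases away, stood at 4.53, 4.64, 2.21 and 4.63 CPM.

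In REH, CBR3-AS1 stood at 9.41 CPM and at 0.193, 0.119 and 0.0669 in RS4;11, SEM and NALM6. Its partner CBR3, a carbonyl reductase, was also highest in REH, at 4.32 CPM, against 0.598, 0.238 and 0.0223. LINC00173 stood at 6.31 CPM in REH and at 0.713, 0.446 and 0.0669 in the other lines, so NALM6 was below both t(4;11) lines. LINC00426, one of the most abundant members, stood at 79.5 CPM in REH and at 19.9, 9.37 and 9.88 in the others; its log2 fold change of -1.51 (SE 1.15) was 0.67 without REH.

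In NALM6, LINC00494 stood at 6.09 CPM, against 0.308 in RS4;11, 0 in SEM and 0.0713 in REH, and LINC00421 had 58 counts (1.29 CPM) with 0 in every other line. In RS4;11, LINC00226, which lies among the immunoglobulin heavy chain genes of chromosome 14, had 77 counts (1.48 CPM), with 1 in SEM and 0 in the controls. PAN3-AS1 was highest in SEM, at 51.6 CPM, against 15.6, 17.6 and 22.4 in RS4;11, NALM6 and REH. Its log2 fold change of 0.84 (SE 0.66) was -0.23 without SEM. Head to head with it and 313 bases away, PAN3, a subunit of a poly(A) deadenylase and a neighbour of FLT3, stood at 1865, 5685, 231 and 325.8 CPM. SEM was highest for both genes of the pair, but RS4;11 was above the controls for PAN3 and below them for PAN3-AS1.

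Some members crossed the groups, with RS4;11 and NALM6 above SEM and REH. LINC00282 on chromosome 13, outside the naming rule, was 1 of them, with 26, 0, 50 and 2 counts in RS4;11, SEM, NALM6 and REH. The most abundant was LINC00163 on chromosome 21. It stood at 78.3 CPM in RS4;11, 0.119 in SEM, 27.6 in NALM6 and 0.0475 in REH, from 4060, 4, 1238 and 4 counts. Its log2 fold change was 1.63 (SE 3.35, adjusted p = 0.876), and -6.74 without RS4;11. LINC00162, its neighbour in hg19 at chr21:46419127-46424642 against chr21:46409779-46414001, was chosen after its values were seen and had the same pattern, with 1.60, 0, 1.54 and 0 CPM. The nearby genes given here were less uneven. ADARB1, an RNA editing enzyme, stood at 253, 68.0, 174 and 7.98 CPM, SSR4P1 at 8.96, 1.87, 6.20 and 0.926 CPM, and FAM207A at 22.7, 17.4, 32.1 and 13.9 CPM. In all 5 genes given, RS4;11 and NALM6 stood above SEM and REH. ADARB1, SSR4P1 and FAM207A were not picked by the naming rule, and the rest of the region is not shown.

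Antisense genes and their partners were compared pair by pair. Of the 81, 78 had a partner in the count table under the symbol without its suffix, and 58 pairs had edgeR values for both genes. Both numbers include HNRNPU-AS1 with HNRNPU, which RefSeq now lists as 1 gene. In 34 of the 58 the log2 fold changes had the same sign, 23 both below 0 and 11 both above, while in 17 the antisense gene was below 0 and the partner above and in 7 the reverse. The median absolute difference between the 2 values of a pair was 0.72. Both genes had their highest CPM in the same line in 35 of the 78 pairs. The groups did not overlap for the antisense gene in 30 of the 78 pairs and for the partner in 33, and in 13 both were so in the same direction. Over all autosomal genes with at least 20 counts the groups did not overlap for 18.2% (higher) and 27.5% (lower), so the 30 and the 33 are not above the background. These shares are of single genes and are no background for the 13 pairs. No background was computed for pairs that separate together, share a sign or share the line with the highest CPM. The partner was higher per length, by FPKM in the authors' deposited table, in 62 of the 78 pairs. Over the 73 pairs whose partner had at least 20 counts the antisense FPKM was a median 8.26% of the partner's. FPKM and counts did not always go together, which limits both comparisons per length. HIF1A-AS2 had 24.4 FPKM with t(4;11) and 26.8 without, from 29 counts in all. SPAG5-AS1 had 0.762 and 0.814 FPKM from 276 counts. The reason was not tested.

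Position was told from GENCODE. In 26 pairs the 5′ ends lay within 1000 bases, and in 45 the genes overlapped with their 5′ ends further apart. Of the former 21 pairs had both values and 12 of them the same sign, and of the latter 31 had both and 17 the same sign. Across the 58 pairs Pearson's r of the log2 fold changes was 0.637 and Spearman's rho 0.328, and r was 0.189 without ZNF503-AS2 and KDM5B-AS1. These are descriptions across pairs, which share libraries and often reads: 51 of the 78 pairs lay in 1 locus of the authors' deposited Cuffdiff table. Exons on opposite strands overlap for 60 of the 74 antisense genes found in GENCODE. The median over all 74, with those lacking overlap included, was 8.31% of exonic bases. BOLA3-AS1 shows a pair that parted at close range. Its 5′ end lies 15 bases from that of BOLA3, an iron-sulfur cluster factor, which stood at 11.3, 15.6, 8.96 and 12.2 CPM in RS4;11, SEM, NALM6 and REH, while BOLA3-AS1 was highest in REH. KLHL7, 55 bases from KLHL7-AS1, stood at 13.6, 12.9, 35.8 and 35.5 CPM, with both controls above both t(4;11) lines as for its antisense gene.

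**Figure D4:**
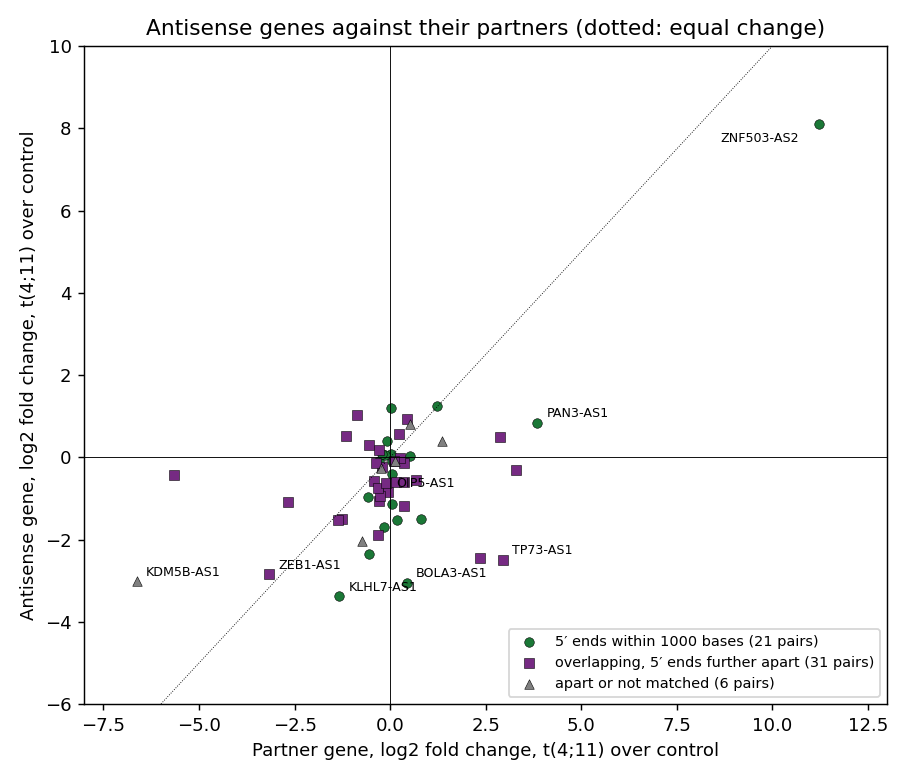
Log2 fold change of t(4;11) over control from edgeR for the 58 antisense genes (vertical axis) against that of their partners (horizontal axis), by the position of the pair in GENCODE. Most pairs lie near 0 on both axes; ZNF503-AS2, whose place depends on the count added to 0 in the controls, and KDM5B-AS1 lie far from 0 on the same side as their partners, and TP73-AS1 lies on the opposite side of 0 from its partner.

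Hosts of microRNAs were 7 members, with 12 microRNA genes and 22 mature sequences in RefSeq; they were taken from the annotation and not by the rule for named genes. The 5′ arms below are shown because the hosts fall into families by their shared seeds, bases 2 to 8, in capitals. LINC00478, now MIR99AHG, and LINC00085 each carry a cluster of the same 3 families, LINC00472 carries miR-30a and miR-30c, and LINC00461, now MIR9-2HG, carries miR-9.
hsa-miR-99a-5p: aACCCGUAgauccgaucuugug
hsa-miR-99b-5p: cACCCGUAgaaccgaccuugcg
hsa-let-7c-5p: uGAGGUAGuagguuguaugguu
hsa-let-7e-5p: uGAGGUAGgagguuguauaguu
hsa-miR-125b-5p: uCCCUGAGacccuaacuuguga
hsa-miR-125a-5p: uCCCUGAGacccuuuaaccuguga
hsa-miR-30a-5p: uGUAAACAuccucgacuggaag
hsa-miR-30c-5p: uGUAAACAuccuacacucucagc
hsa-miR-9-5p: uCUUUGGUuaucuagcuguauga

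The miR-99, let-7 and miR-125 seeds are each shared by 1 microRNA of LINC00478 on chromosome 21 and 1 of LINC00085 on chromosome 19. LINC00478 stood at 1.08 CPM in RS4;11, 0.446 in SEM, 3.17 in NALM6 and 2.28 in REH, with both t(4;11) lines below both controls (log2 fold change -1.72, SE 0.78, adjusted p = 0.490). LINC00085 stood at 0.463, 0.119, 0.178 and 2.66 CPM, highest in REH, and its groups overlapped (-2.16, SE 1.62, adjusted p = 0.641). SEM was thus lowest for both hosts, but for LINC00085 this rests on 4 counts in SEM against 8 in NALM6. LINC00461 stood at 5.90, 2.29, 0 and 7.30 CPM, with no count in NALM6. LINC00472 had 57 counts in SEM (1.70 CPM), 0 in RS4;11 and 1 in each control. These are levels of the host transcripts, and mature microRNAs were not measured in polyadenylated RNA libraries.

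Long noncoding RNAs with other names were read beside the members. Of a list of 51, 47 were in the count table and 37 had edgeR values, of which 0 had an adjusted p under 0.05, 2 were higher and 1 lower with t(4;11) at p under 0.05 before adjustment (against 6.18% and 5.87% of all genes tested), and 19 lay above 0 and 18 below, with a median log2 fold change of 0.12. Those higher were GAS5, host of many small nucleolar RNAs, at 336, 223, 146 and 182 CPM in RS4;11, SEM, NALM6 and REH (0.88, SE 0.30), and SNHG6, another such host (1.43, SE 0.37). DLEU1, a gene of the 13q14 region often lost in lymphoid leukemia, was lower, at 3.66, 2.14, 14.8 and 12.5 CPM (-2.13, SE 0.55). DLEU2, of the same region, went the other way, at 8.35, 4.76, 2.25 and 3.53 CPM (1.29, SE 0.64). HAR1A stood at 0.0193, 1.46, 18.0 and 27.0 CPM and was called in the authors' deposited table of DESeq results (adjusted p = 4.54e-06), but not by edgeR. MALAT1 was highest in REH, at 783 CPM, against 361, 413.5 and 310.2 in RS4;11, SEM and NALM6, and MEG3, HOTAIR and DGCR5 had no count in any line.

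The spread over the lines depended on level. Among members counted in every line, 105 in number, the ratio of the highest to the lowest CPM had a median of 3.72, against 2.09 for all genes counted in every line, which are more abundant. Another measure, the share of summed CPM in the line with the highest level, was compared at matched counts. With 20 to 100 counts its median was 42.4% for members and 54.2% for all genes, and with 100 to 1000 counts 48.0% and 52.2%. This reverse order held for antisense genes (40.2% and 44.1%) and not for LINC genes (63.8% and 60.3%). From 1000 counts up the median share was 37.2% for members against 32.6%. Of the members counted in every line, the ratio of the highest to the lowest CPM was under 2 for 25 and at least 10 for 21. In 24 members at least 1 line had no count, and 7 were at 0 in both controls and 2 in both t(4;11) lines.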

How the data were processed

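RNA-seq libraries of polyadenylated RNA from 4 cell lines, 2 with t(4;11) and 2 without, were deposited as 2 tables. Named in the submitters' processing notes are hg19 as the build and, as tools, HTSeq, DESeq, Cuffdiff, TopHat, TopHat2 2.0.4 and CASAVA 1.8.2. What each did, its settings and the gene annotation were not given in the sources used here. One table gives, per the file headers, raw counts for each gene in each line, as deposited from HTSeq, with the authors' fold change (a ratio), its log2 and DESeq p-values. Per the file headers, the other deposited table holds the authors' Cuffdiff results: FPKM per group with no value per library, a log2 fold change, p-values and q-values. Signs were turned so that positive is higher with t(4;11). The 4 columns of the authors' normalized counts were not used. Dates had replaced 28 symbols.

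CPM is the count divided by the column sum. edgeR 4.0.16 (R 4.3.3) fitted all genes that passed filterByExpr with TMM scaling and no covariate, with Benjamini-Hochberg adjustment over 13844 genes and a threshold of 0.05, two-sided. Residual degrees of freedom were 2 and the biological coefficient of variation was 0.699. The SE is the size of the log2 fold change divided by the square root of F. Alternatives were RLE size factors, library size alone, other filters, the exact test, DESeq2 1.42.0, a minimum of 100 counts and each line left out; a mean of at least 0.5 CPM in place of 20 counts was added after seeing the data. The scripts were tested on simulated data. The members, lists and rules were chosen with earlier results of these data known.

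Named were the 10 most abundant members, the 10 largest log2 fold changes each way among members of at least 0.5 mean CPM whose groups did not overlap, up to 3 per line with at least 80% of their summed CPM there, members antisense to HOX, TALE homeobox or B-lineage genes, members called by a deposited table or the exact test, and the 8 most abundant antisense members with a partner. This gave 34. Names, microRNAs and promoter windows are from RefSeq (GRCh38.p14), and exons from GENCODE 29 (GRCh38), matched by symbol, with no conversion of coordinates. The labels name no batch and no separate cultures, so p-values measure the spread between lines.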

Additional observations from a re-analysis of the deposited data

How the results depend on the processing

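No member had an edgeR adjusted p under 0.05 with any other scaling, filter or left-out line, while the exact test called 1 and DESeq2 called 7. At an unadjusted p under 0.05 DESeq2 gave 17 members in place of 10, and leaving out 1 line gave 4 (without SEM) to 16 (without NALM6). The median log2 fold change of -0.35 ranged from -0.58 (without RS4;11) to 0.044 (without REH). Members higher in both t(4;11) lines numbered 14, but 16 with TMM-scaled library sizes and 6 with at least 100 counts. With a mean of at least 0.5 CPM (chosen after seeing the data) they were 6 of 85, against 2435 of 12947 genes. With 1 line left out, which makes separation easier for any gene, they were 23 to 40. Members lower numbered 39, but 34 with TMM-scaled library sizes and 54 to 73 with 1 line left out. With a mean of at least 0.5 CPM they were 31 of 85, against 3666 of 12947 genes. Shares of all genes with TMM scaling or a line left out are not given, so those changes cannot be read as particular to members. Of 27 named members with values, under 265 alternatives, the sign turned in 9 cases, each with a line left out. Over the left-out lines the log2 fold change ran from -0.31 to 0.12 for HNRNPU-AS1 (0.12 without SEM, 0.025 without REH), from -0.31 to 0.11 for ZNFX1-AS1 (0.11 without SEM, 0.06 without REH), from -2.34 to 0.67 for LINC00426 and from -3.33 to 3.16 for LINC00173 (both highest without REH), from -0.23 (without SEM) to 1.46 for PAN3-AS1, from -6.74 (without RS4;11) to 9.73 for LINC00163 and from -10.36 to 1.24 (without NALM6) for LINC00494. The cause was not tested. No paired analysis was possible because the replicate numbers only follow the order of listing and pair no lines. Leaving out a line leaves 1 library in a group, assumed to vary like the other group. Depth limits members under about 1 CPM: a count of 0 in SEM allows 0.0892 CPM.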
